A study of Mus musculus with 62 samples.

Results

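The 30 genes described here encode proteins of the GABA synapse and of inhibitory neurons. They were chosen by gene name and comprise 10 subunits of the type A GABA receptor, 2 subunits of the type B GABA receptor, 5 genes for synthesis, packing, uptake and breakdown of GABA, 2 scaffold genes of the inhibitory postsynapse, 2 chloride transporters, 7 genes of interneuron identity and 2 glycine receptor subunits. All 30 were found, each under 1 identifier, among the 53975 gene identifiers of the deposited tables, and 29 of them averaged at least 1 TPM, a length-corrected transcript abundance, in mouse hippocampus and were tested there among 17840 genes.

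GABA is the main inhibitory transmitter of the forebrain. It is made from glutamate by the 2 glutamate decarboxylases Gad1 and Gad2, loaded into vesicles by Slc32a1, and released by interneurons onto type A receptors, which are chloride channels of 5 subunits, and onto type B receptors, which signal through G proteins. In the hippocampus, receptors with different alpha subunits lie at different places on the neuron: Gabra2 at synapses, Gabra5 largely outside them on pyramidal cells, and Gabra4 together with Gabrd outside synapses on dentate granule cells. The balance of the chloride exporter Slc12a5 and the importer Slc12a2 sets whether opening such a channel inhibits a cell.

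Long RNA was sequenced from 17 mouse hippocampus libraries and 14 libraries of HT-22 cells, a mouse line derived from hippocampal neurons. The APP mice carried the App allele NL-G-F, a knock-in in which the mouse App gene, under its own promoter, has a humanised amyloid beta sequence with familial Alzheimer mutations; the WT mice were C57BL/6J. Each genotype was sampled at ages of 3, 6 and 12 months with 3 animals per group, except WT at 3 months with 2, and the left and right hippocampus of an animal were pooled. HT-22 cells had received a locked nucleic acid (LNA) against Hsf1, a heat shock transcription factor, at 150 nM, or a scramble LNA at a labelled 50 uM, for 24 h. They were next exposed to 30 uM of the amyloid peptide Aβ42 or of its reverse-sequence control, with 4 libraries per peptide under scramble LNA and 3 per peptide under anti-Hsf1 LNA.

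Levels are given as scaled TPM, that is the authors' TPM, which is already corrected for gene length, divided by a size factor for each library (the median ratio to the geometric mean over libraries, computed within hippocampus and within HT-22 libraries). Relative depth, read as the most common ratio of the authors' coverage to their FPKM in a library, ran from 1.42 to 3.04 in hippocampus and from 0.724 to 2.60 in HT-22 libraries. Of the entries with FPKM above 0, 46.7% to 48.6% held that ratio in hippocampus and 30.7% to 47.4% in HT-22 libraries. The number of reads per gene is not known from these units. A gene was called where the Benjamini-Hochberg adjusted p of limma, over all genes tested, was below 0.05, and a log2 change is on the log2(scaled TPM + 1) scale, which understates the change of low genes.

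Some libraries stood apart. The summed scaled TPM of 8 markers of thalamic neurons was 563 in APP 3-month replicate 1 and 197 in APP 3-month replicate 2. It was 158 in APP 6-month replicate 1, against 47.9 to 71.3 in the other 14 hippocampus libraries. The value of 71.3 was that of APP 3-month replicate 3. The summed striatal markers were 214 in APP 3-month replicate 1 and 88.0 in replicate 2, against 45.7 to 67.1 in the others. The 8 excitatory neuron markers summed to 409 in APP 3-month replicate 1 and to between 1260 and 1720 in the other 16. In APP mice 6 cerebellar markers summed to 15.98 to 56.84 at 3 months, 5.97 to 34.3 at 6 and 7.29 to 9.91 at 12 months. Sex also differed: all APP libraries and the WT 3-month libraries held Xist, at 70.7 to 137 scaled TPM, while the WT 6-month and WT 12-month libraries held the Y-linked Ddx3y, at 18.8 to 28.2. The comparisons of genotype at 6 and 12 months and the interaction of genotype with age therefore cannot be told apart from a comparison of sexes, whereas the comparison at 3 months, those within APP mice and WT 12 against 6 months are between mice of 1 sex; Gabra3 and Glra2 lie on the X chromosome. The immediate-early gene Fos stood at 15.9 or above in the APP 3-month libraries and at 4.56 to 14.1 in the other hippocampus libraries, and its part in the 3-month values was not tested.

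In hippocampus the 30 genes spanned from the type B receptor subunit Gabbr1, with a mean of 175 scaled TPM over the 17 libraries, to the alpha subunit Gabra6, with a mean of 0.166. Gabra6 is known as the alpha subunit of cerebellar granule cells. It was at 0 in 13 of the 17 libraries and was highest, at 2.02, in APP 3-month replicate 3. Next to Gabbr1 in mean level were Gad1 (103), the potassium and chloride cotransporter Slc12a5 (82.5), the glycine receptor beta subunit Glrb (76.8) and the receptor subunit Gabrb2 (75.5). The developmental transcription factors of interneurons were low, with means of 8.51 for Dlx1, 4.599 for Lhx6, 2.72 for Dlx6, 1.82 for Dlx5 and 1.82 for Dlx2. Among the tested members the coefficient of variation over the 17 libraries was smallest for the scaffold protein gephyrin (Gphn, 8.73%, 20.6 to 27.5 scaled TPM) and largest for Gabrd (68.6%, 4.03 to 33.7). Hippocampus is bulk tissue, so fewer cells of a type and less RNA per cell cannot be told apart in any of these values.

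APP against WT at 3 months, the age at which the series describes very low plaque load, gave a call for 1 of the 29 genes, Pvalb, while 0.303% of all tested genes were called (0.123% higher in APP). Pvalb encodes parvalbumin, the calcium-binding protein of fast-spiking interneurons, and lies on the minus strand at chr15:78191114-78206400 of GRCm38. Its level was 57.5, 44.1 and 37.7 scaled TPM in the 3 APP libraries and 20.3 and 19.97 in the 2 WT libraries. The groups did not overlap, with an APP mean of 46.4 ± 10.1 (SD, n = 3) beside a WT mean of 20.1 ± 0.229 (SD, n = 2). The log2 change was 1.15 ± 0.21 (SE, limma adjusted p = 0.0417). The call ended without any of 4 of the 5 libraries: the adjusted p was 0.0972 without APP replicate 1, 0.0616 without APP replicate 2, 0.172 without WT replicate 1 and 0.220 without WT replicate 2. Without APP replicate 3 the count of called members was 4, while calls over all genes rose from 54 of 17840 to 376 of 17913. Leaving out the 3 libraries high in thalamic markers was a choice made after seeing the data. It keeps replicate 3 as the only APP library at 3 months, so only the size of a change is given for it. The change of Pvalb was then 0.87.

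The 250 bases before the RefSeq start of Pvalb (GRCm38.p6, minus strand, chr15:78206401-78206650) are shown because Pvalb is the member called between genotypes, and the start of the gene in the deposited tables is the same base. The window was searched on both strands for a homeodomain core (TAATTA), a cyclic AMP response element (TGACGTCA), a TATA box (TATAAA), an E-box (CACGTG), an AP-1 site (TGANTCA) and an Egr site (GCGTGGGCG), and held none of these letters.
Pvalb: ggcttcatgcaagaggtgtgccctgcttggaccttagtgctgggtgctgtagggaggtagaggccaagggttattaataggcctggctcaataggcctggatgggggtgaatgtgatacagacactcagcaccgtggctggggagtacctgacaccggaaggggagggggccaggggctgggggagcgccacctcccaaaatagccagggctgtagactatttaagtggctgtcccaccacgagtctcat
Of 32851 windows of this length in the RefSeq promoter table, 4.84% held TAATTA, 1.55% TGACGTCA, 12.4% TATAAA, 6.02% CACGTG, 6.75% TGANTCA and 0.536% GCGTGGGCG. Of the 25 members with a window, TAATTA was found in that of Gabrg1, TATAAA in those of Gabra3, Gabrb2, Gad1 and Glra2, CACGTG in those of Dlx2 and Slc12a5, TGANTCA in those of Lhx6 and Slc12a5, and the other 2 motifs in none of the 25. A match describes letters and is not a site.

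**Figure D1:**
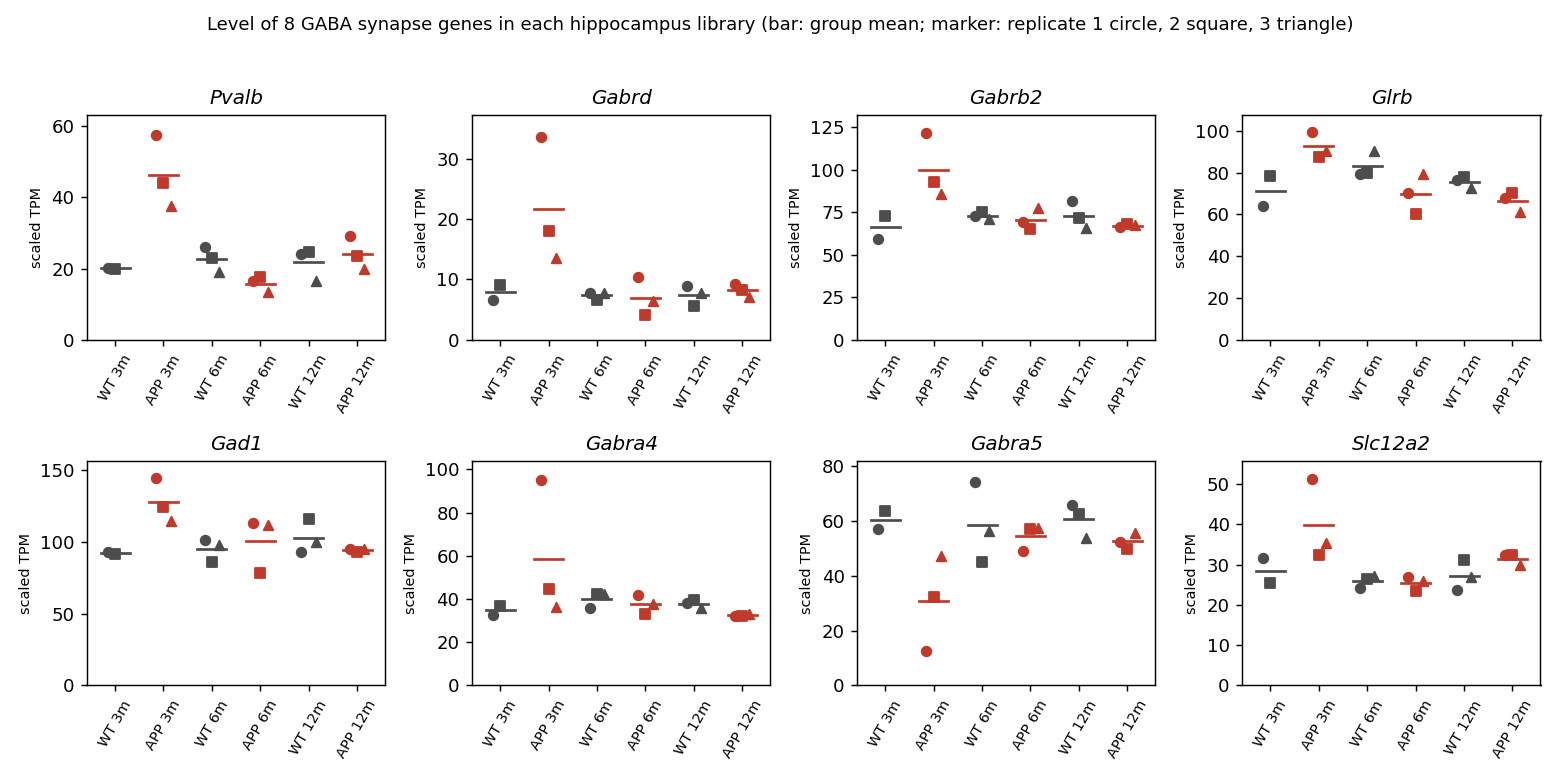
Scaled TPM (y axis, from 0) of 8 genes in each hippocampus library, with WT groups in grey, APP groups in red, 1 point per library and a bar at the group mean. The APP 3-month libraries hold the highest 3 values of Pvalb (37.7 to 57.5) and Gabrd (13.5 to 33.7), and the lowest value of Gabra5 (12.8) is APP 3-month replicate 1.

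At 3 months more of the 29 genes lay apart by genotype than were called. In 12 of 29 (41.4%), every APP library was above every WT library, against 13.8% of all tested genes. In 3 of 29 (10.3%), every APP library was below, against 13.4%. The median log2 change of the 29 was 0.36 and that of all genes 0.00. An unadjusted p below 0.05 was found for 13 of the 29, a larger share than the 13.4% of all genes. That count was 7 without APP replicate 1 (9.90% of all genes), 6 without WT replicate 1 (11.3%), 7 without WT replicate 2 (8.31%) and 7 in a fit of these 5 libraries alone (7.99%). Without the 3 libraries high in thalamic markers, which keeps APP replicate 3 alone at 3 months, the median of the 29 was 0.07. Markers of glia also lay apart by genotype at 3 months. The 8 oligodendrocyte markers summed to 1574 to 2638 scaled TPM in APP and 1468 to 1544 in WT, and the 8 astrocyte markers to 1029 to 1166 in APP and 1192 to 1222 in WT. Microglia markers (126 to 136 and 106 to 131) and markers of plaque-associated glia (85.3 to 153 and 132 to 148) overlapped. The part of these cell types in the members' values was not tested.

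Of the type A receptor subunits, Gabrd had the largest change at 3 months. It encodes the delta subunit, which forms receptors outside synapses in dentate granule cells and in thalamus, and lies at chr4:155384980-155398112 (minus strand). Its level was 33.7, 18.1 and 13.5 scaled TPM in APP and 6.65 and 9.12 in WT, so the groups did not overlap, with APP replicate 1 highest. The log2 change of 1.27 ± 0.34 (SE) did not pass the test (limma adjusted p = 0.118), and it was 0.92 without APP replicate 1 and 0.72 without the libraries high in thalamic markers.

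The alpha subunits went different ways in the same libraries. Gabra4 (chr5:71569749-71658308, minus strand), the usual partner of Gabrd in forebrain, stood at 95.1, 44.8 and 36.3 scaled TPM in APP at 3 months and at 32.8 and 36.7 in WT. Replicate 1 was far above all others and replicate 3 was within the WT range (log2 change 0.62 ± 0.26, limma adjusted p = 0.319; 0.21 without replicate 1). Gabra5 (chr7:57407672-57510059, minus strand), a subunit typical of hippocampal pyramidal cells, stood at 12.8, 32.2 and 47.1 in APP and at 57.2 and 63.6 in WT. Every APP library was below both WT libraries, with the lowest value again in replicate 1 (log2 change -1.13 ± 0.35, limma adjusted p = 0.171; -0.62 without replicate 1). As a share of the summed level of Gabra2, Gabra3, Gabra4 and Gabra5 in a library, Gabra4 made up 44.1% ± 20.1 (SD, n = 3) in APP at 3 months, with libraries from 28.7% to 66.9%, and 24.1% ± 0.431 (SD, n = 2) in WT. Gabra5 made up 24.2% ± 14.3 in APP at 3 months, from 8.98% to 37.3%, and between 33.8% and 41.9% on average in the other 5 groups. Gabra4 and Gabrb1 overlap head to head on opposite strands, Gabra5 overlaps genes on the other strand, and the library kit named in the labels does not mark strand, so reads from such overlaps cannot be told apart.

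**Figure D2:**
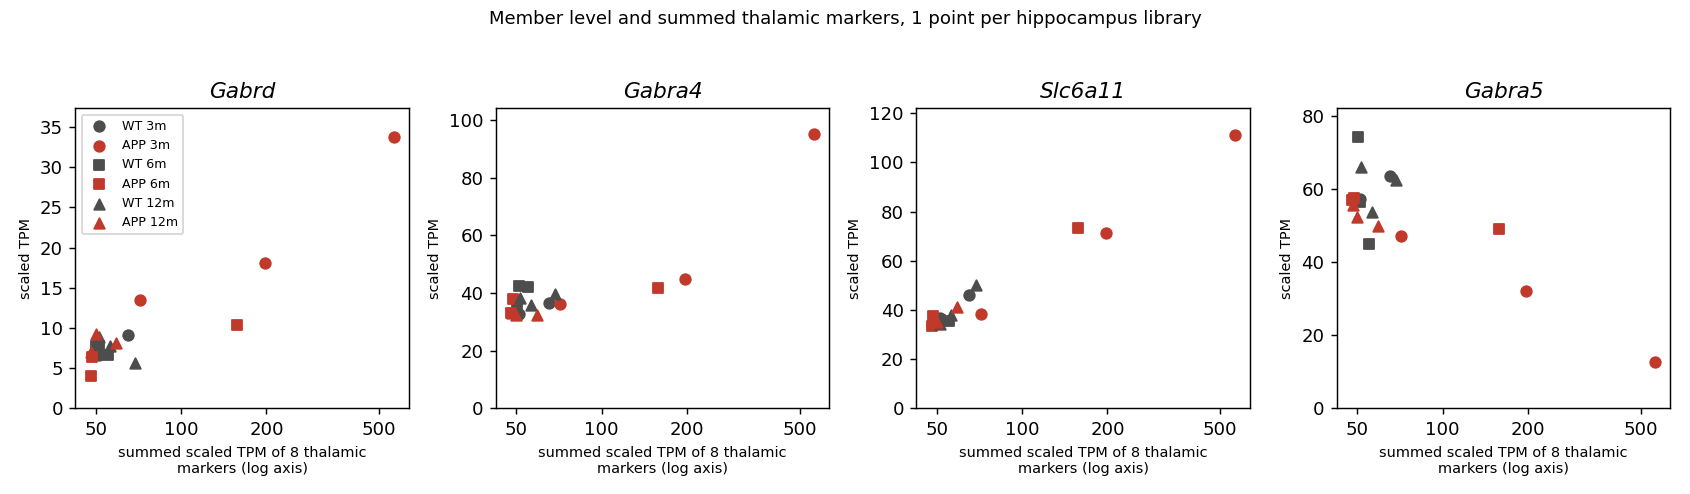
Scaled TPM of Gabrd, Gabra4, Slc6a11 and Gabra5 (y axes, from 0) against the summed scaled TPM of 8 thalamic neuron markers (x axis, log), 1 point per hippocampus library. The library with a marker sum of 563 has the highest Gabrd (33.7), Gabra4 (95.1) and Slc6a11 (111) and the lowest Gabra5 (12.8).

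For Gad1, Gad2 and Slc32a1, genes of the GABA terminal, each APP library at 3 months was above both WT libraries, but none of the 3 passed the test. Gad1, which makes most basal GABA, stood at 144, 125 and 115 scaled TPM in APP and 92.8 and 91.2 in WT (log2 change 0.46 ± 0.15, limma adjusted p = 0.197). Gad2, the decarboxylase of the nerve terminal, stood at 68.0, 41.5 and 33.8 in APP and 32.6 and 31.2 in WT (0.51 ± 0.21, adjusted p = 0.305; 0.23 without APP replicate 1). The vesicular transporter Slc32a1 stood at 37.6, 35.4 and 26.1 in APP and 21.6 and 23.8 in WT (0.51 ± 0.19, adjusted p = 0.262). Slc6a11, which takes GABA up into astrocytes and is abundant in thalamus, stood at 111, 71.4 and 38.5 in APP and 36.9 and 46.0 in WT, with replicate 3 inside the WT range (0.70 ± 0.35, adjusted p = 0.417). Over all 17 libraries the highest 3 values of Slc6a11 were those of the 3 libraries with the highest thalamic marker sums: 111, 73.4 (APP 6-month replicate 1) and 71.4. Without these 3 libraries its change at 3 months was -0.09. What part thalamic tissue had in the 3-month values of any of these genes was not tested.

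Gephyrin, the scaffold under the receptors, and the adhesion protein Nlgn2 were measured in all 17 libraries. Gphn stood at 25.99, 25.1 and 27.3 in APP against 22.7 and 21.3 in WT at 3 months, 20.8, 24.1 and 25.3 in APP against 25.4, 25.9 and 24.8 in WT at 6 months and 24.4, 22.2 and 27.5 in APP against 23.7, 25.3 and 20.6 in WT at 12 months, in scaled TPM. The APP libraries were the higher at 3 months, and the groups overlapped at the later ages. Nlgn2 stood at 41.3, 66.6 and 60.8 in APP against 65.3 and 73.3 in WT at 3 months, 45.4, 53.2 and 61.7 in APP against 42.2, 36.8 and 48.8 in WT at 6 months and 55.3, 57.9 and 54.6 in APP against 46.8, 56.9 and 55.6 in WT at 12 months, and the genotypes overlapped at every age.

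The interneuron transcription factors Dlx1, Dlx2 and Lhx6 mark this lineage from its precursors on. Dlx1 stood at 7.79, 6.96 and 9.095 in APP against 11.1 and 9.24 in WT at 3 months (scaled TPM), 8.77, 8.91 and 10.4 in APP against 8.69, 5.65 and 8.85 in WT at 6 months and 8.6, 8.33 and 7.696 in APP against 7.36, 9.69 and 7.62 in WT at 12 months. Dlx2 stood at 1.93, 1.79 and 1.796 in APP against 2.28 and 1.61 in WT at 3 months, 2.24, 1.76 and 1.75 in APP against 1.88, 1.55 and 1.79 in WT at 6 months and 1.75, 1.15 and 1.61 in APP against 1.25, 2.19 and 2.52 in WT at 12 months. Lhx6 stood at 3.17, 3.33 and 3.71 in APP against 3.71 and 5.77 in WT at 3 months, 3.96, 5.39 and 4.85 in APP against 4.398, 3.55 and 5.79 in WT at 6 months and 7.75, 3.77 and 3.38 in APP against 3.34, 4.08 and 8.26 in WT at 12 months. All Dlx1 values of APP were below those of WT at 3 months, and in every other of these comparisons the genotypes overlapped.

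Among the remaining members at 3 months, Gabrb2, a beta subunit of synaptic receptors, stood at 122, 92.8 and 85.6 scaled TPM in APP and 59.5 and 72.8 in WT (log2 change 0.58 ± 0.14, limma adjusted p = 0.0994). Glrb, which anchors glycine receptors to gephyrin, stood at 99.6, 87.7 and 90.4 in APP and 64.0 and 78.4 in WT (0.38 ± 0.13, adjusted p = 0.203). For both genes all APP libraries were above all WT libraries. The others with all APP libraries above WT were Gabrg3, Glra2, Gphn, Slc12a2 and Erbb4, a receptor tyrosine kinase of interneurons, and those with all APP libraries below were Gabra2, Gabra5 and Dlx1. Dlx1 overlaps an antisense gene, so its value may include reads of that gene.

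At 6 months, the age of plaque appearance, 0 of the 29 genes were called by limma, while 1.66% of all tested genes were, and 4 of the 29 had an unadjusted p below 0.05, against 16.98% of all genes. The median log2 change of the 29 was -0.03. The 3 genes with the largest changes were Gabra2, Pvalb and Slc6a11. Pvalb stood at 16.4, 17.6 and 13.4 scaled TPM in APP and 26.1, 22.9 and 19.1 in WT, so that APP was the lower group at this age (log2 change -0.49 ± 0.19, adjusted p = 0.192). Slc6a11 stood at 73.4, 33.6 and 37.7 in APP and 35.3, 35.6 and 35.8 in WT, with the high value in the library that also held thalamic markers (0.34 ± 0.31, adjusted p = 0.636). All APP libraries were below all WT libraries in 4 of 29 (13.8%: Gabra2, Gabrg3, Glrb and Pvalb; 10.1% of all genes) and above in 1 of 29 (3.45%: Gabbr2, the type B subunit that couples to G proteins; 11.1% of all genes).

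On the deposited TPM without scaling, 18 of the 29 genes were called higher in APP at 6 months, but so were 57.6% of all tested genes, and the median of all genes moved by 0.60 on the log2 scale. The members' median was 0.64. Protein-coding genes took 42.6% ± 7.60 of TPM in APP and 27.3% ± 1.00 in WT at 6 months (SD, n = 3 each). In unscaled TPM the change of Gabra2 at 6 months was 0.02 and that of Pvalb 0.19, both of the opposite sign to the scaled values. Unscaled TPM also gave calls for 7 of 29 genes in the interaction (33.1% of all genes), 5 from 3 to 6 months in APP mice (7.12%) and 1 from 3 to 12 months (1.60%). In HT-22 cells it gave 1 of 8 for Aβ42 against reverse peptide under anti-Hsf1 LNA (24.3%), 3 of 8 between LNAs under Aβ42 (50.7%) and 1 of 8 for the peptide by LNA interaction (25.3%).

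At 12 months 0 of the 29 genes were called by limma, while 0.443% of all tested genes were, and 2 of the 29 had an unadjusted p below 0.05, against 7.04% of all genes. The median log2 change of the 29 was -0.11. The largest changes were those of Gabra2, Gabrg3 and Dlx6. Gabrg3, a gamma subunit of low level, stood at 6.28, 7.11 and 7.19 scaled TPM in APP and 8.82, 8.42 and 9.86 in WT (log2 change -0.35 ± 0.12, adjusted p = 0.416). Dlx6, a homeobox gene of interneuron development that overlaps a noncoding gene, stood at 1.29, 1.89 and 3.81 in APP and 1.60, 1.84 and 1.62 in WT, with no separation (0.24 ± 0.39, adjusted p = 0.989). In 6 of 29 (20.7%: Gabra4, Gabrg1, Gabrg3, Gad2, Glra2 and Glrb) all APP libraries were below all WT libraries, against 6.97% of all genes, and in 0 of 29 were they above, against 8.67%. At 12 months the markers of plaque-associated glia summed to 628 to 813 scaled TPM in APP and 169 to 178 in WT, astrocyte markers to 1635 to 1813 and 1260 to 1292, microglia markers to 312 to 394 and 141 to 165, and oligodendrocyte markers to 1138 to 1265 and 1004 to 1048. Their part in the members' values was not tested.

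**Figure D3:**
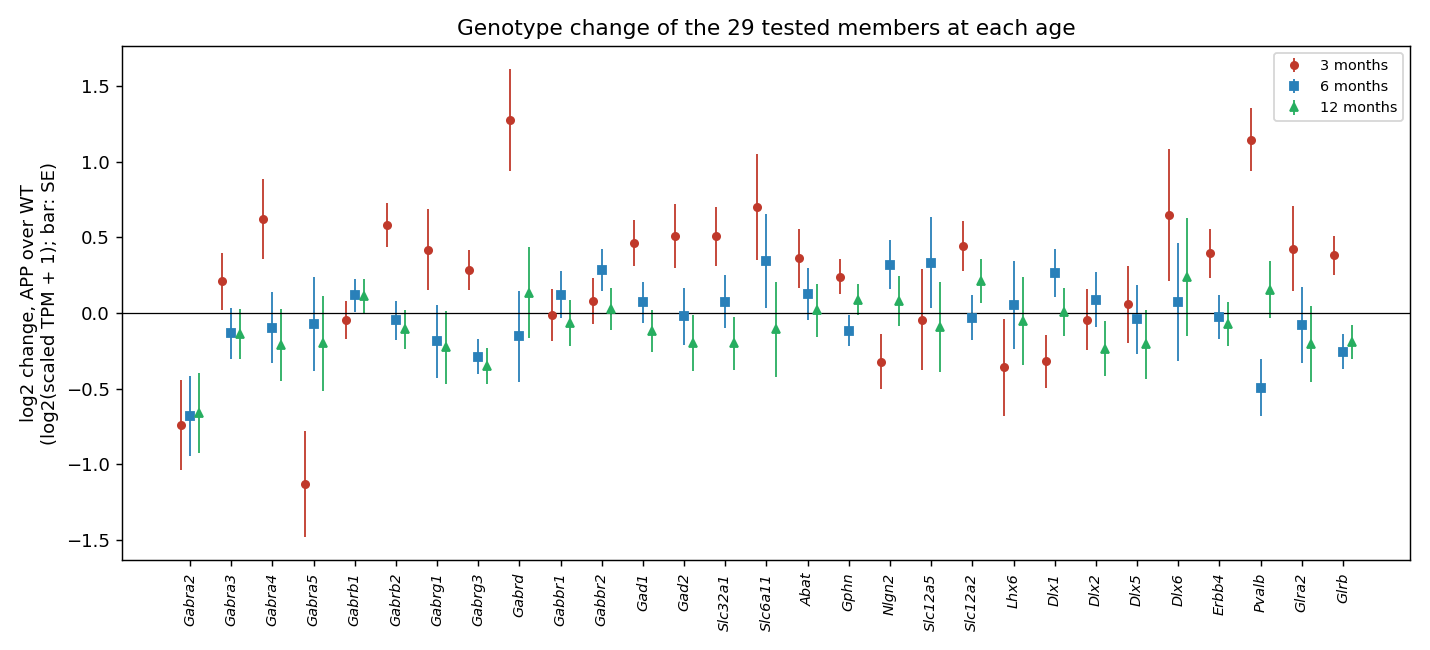
Log2 change of APP over WT on the log2(scaled TPM + 1) scale (y axis, with its SE) for the 29 tested genes (x axis) at 3, 6 and 12 months. At 3 months Gabrd (1.27) and Pvalb (1.15) are the highest and Gabra5 (-1.13) the lowest, and Gabra2 lies between -0.66 and -0.74 at all 3 ages.

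The genotype change of Pvalb differed between ages: a limma F test that set the later 2 changes against the 3-month change gave an adjusted p of 0.0383, and the change was 1.64 lower at 6 than at 3 months and 0.99 lower at 12 than at 3 months on the log2 scale. It was the 1 member of 29 called for this interaction, for which 0.437% of all tested genes were called. At 12 months Pvalb stood at 29.2, 23.6 and 19.8 scaled TPM in APP and 24.2, 24.6 and 16.5 in WT, and the ranges overlapped in part. The adjusted p stayed below 0.05 without any of 5 of the 17 libraries (APP 3-month replicates 2 and 3, APP 6-month replicate 2, WT 6-month replicate 3 and WT 12-month replicate 3; 0.0274 to 0.0447). It was above 0.05 without each of the other 12. The fit without the libraries high in thalamic markers kept 1 APP library at 3 months, so its p-value is not given.

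Gabra2 had a lower mean in APP than in WT at all 3 ages, but the WT libraries at 12 months alone spanned 24.1 to 60.9 scaled TPM. It encodes a synaptic alpha subunit (chr5:70957597-71095849, minus strand). It stood at 12.5, 19.1 and 18.3 scaled TPM in APP and 27.1 and 29.01 in WT at 3 months, at 25.7, 39.6 and 32.6 against 46.2, 61.7 and 49.5 at 6 months, and at 24.9, 28.6 and 26.5 against 52.3, 60.9 and 24.1 at 12 months. The log2 changes were -0.74 ± 0.30, -0.68 ± 0.27 and -0.66 ± 0.27, with limma adjusted p of 0.285, 0.202 and 0.580, so none passed the test. Without WT 12-month replicate 3, the lowest WT library, the 12-month change was -1.06 with an adjusted p of 0.0427, and without WT 12-month replicate 2, the highest, it was -0.41 with an adjusted p of 0.786. Without each of the other 4 libraries at 12 months it was between -0.71 and -0.52 and did not pass the test.

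The WT libraries with high Gabra2 also differed in Nnt, a mitochondrial transhydrogenase gene that was looked at after the Gabra2 values had been seen. C57BL/6J mice are known to carry a deletion inside Nnt and a noncoding deletion in Gabra2 that lowers its transcript. The deposited tables list Nnt under 2 overlapping entries on the minus strand of chromosome 13 (119335448 to 119408997, and 119335528 to 119408952). In WT 6-month replicates 1 to 3 and WT 12-month replicates 1 and 2, Gabra2 was 46.2 to 61.7 scaled TPM, the first Nnt entry 12.0 to 14.9 and the second 0. In WT 12-month replicate 3, WT 3-month replicate 1 and APP 6-month replicate 1, Gabra2 was 24.1 to 27.1, the first entry 7.15 to 7.41 and the second 0. In the other 9 libraries Gabra2 was 12.5 to 39.6, the first entry 2.56 to 4.71 and the second 3.28 to 6.54. Whether the mice differ in either allele was not tested.

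**Figure D4:**
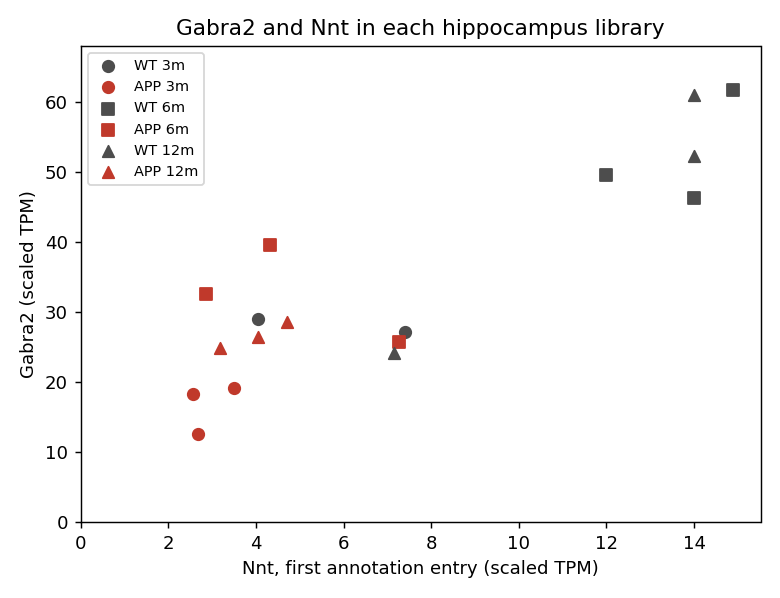
Gabra2 (y axis) against the first Nnt entry (x axis), both in scaled TPM from 0, 1 point per hippocampus library. The 5 libraries with Nnt from 12.0 to 14.9 are WT and hold Gabra2 of 46.2 to 61.7, and WT 12-month replicate 3 (Nnt 7.15, Gabra2 24.1) lies apart from the other WT 12-month libraries.

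From 3 to 12 months in APP mice, 5 of 29 genes were called lower and 0 higher, while 1.36% of all tested genes were called lower and 1.92% higher. The 5 were Pvalb, Gabrd, Gabrb2, Gabrg3 and Glrb. In 14 of 29 (48.3%) every 12-month library was below every 3-month library, against 10.7% of all genes, and in 2 of 29 (6.90%: Gabra2 and Gabra5) every one was above, against 11.3%. The median log2 change was -0.37, and that of all genes 0.01. This comparison and that of 6 with 3 months use the same 3 APP libraries at 3 months as the genotype comparison above, so they are not independent of it.

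Markers of glia moved over the same ages in APP mice. The summed oligodendrocyte markers were 1574 to 2638 scaled TPM at 3 months, 882 to 1115 at 6 and 1138 to 1265 at 12 months, and in WT 1468 to 1544, 807 to 1054 and 1004 to 1048. The astrocyte markers were 1029 to 1166, 1342 to 1587 and 1635 to 1813 in APP. The 8 markers of plaque-associated glia were 85.3 to 153, 152 to 472 and 628 to 813 in APP, and the 8 microglia markers 126 to 136, 120 to 229 and 312 to 394. The 12-month libraries thus did not overlap those of 3 months in any of these 4 lists, with oligodendrocyte markers lower and the other 3 higher. Their part in the members' values was not tested.

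Pvalb at 12 months (29.2, 23.6 and 19.8 scaled TPM) was below all 3 of its 3-month values (log2 change -0.91 ± 0.19, limma adjusted p = 0.0178). Gabrd stood at 9.31, 8.17 and 7.03 at 12 months, close to the WT libraries of every age, which ranged from 5.64 to 9.12 (-1.22 ± 0.30, adjusted p = 0.0403). Gabrb2 stood at 66.1, 67.9 and 67.5 (-0.55 ± 0.13, adjusted p = 0.0302). The 12-month values of Gabrg3, given above, were below its 3-month values of 12.2, 9.38 and 10.03 (-0.55 ± 0.12, adjusted p = 0.0222). Glrb stood at 67.7, 70.1 and 61.0 (-0.48 ± 0.11, adjusted p = 0.0337). Replicate 1 held the highest 3-month value of each of these 5. The count of called members was 0 when 3-month replicate 1 was left out, 3 for replicate 2 and 13 for replicate 3 of that group. Over all genes 406, 383 and 756 were called in those fits, against 585 of 17840 with every library. The count of members was 1, 0 and 0 when 12-month replicate 1, 2 or 3 was left out, with 189, 210 and 160 of all genes called. Without the libraries high in thalamic markers, which keeps 3-month replicate 3 alone in its group, the median log2 change of the members was -0.15.

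From 3 to 6 months in APP mice, 3 of 29 genes were called lower and 0 higher, while 1.09% of all tested genes were called lower and 1.27% higher. Pvalb fell from 57.5, 44.1 and 37.7 to 16.4, 17.6 and 13.4 scaled TPM (log2 change -1.48 ± 0.19, limma adjusted p = 0.00553). That call held without each of the 6 libraries in turn, with adjusted p from 0.00225 to 0.0331. Without the libraries high in thalamic markers, which keeps 3-month replicate 3 alone in its group, the change of Pvalb was -1.24. Gabrd fell to 10.4, 4.03 and 6.41 (-1.50 ± 0.30, adjusted p = 0.0227), a call lost when 3-month replicate 1 (adjusted p = 0.0639) or 6-month replicate 2 (0.102) or 3 (0.0791) was left out. The chloride importer Slc12a2 fell from 51.2, 32.4 and 35.5 to 26.96, 23.4 and 25.9 (-0.60 ± 0.15, adjusted p = 0.0482), a call lost when 3-month replicate 1 (0.134) or 6-month replicate 1 (0.0647), 2 (0.191) or 3 (0.118) was left out. In 7 of 29 (24.1%) every 6-month library was below every 3-month library, against 10.1% of all genes, and in 4 (13.8%: Gabra2, Gabra5, Gabrb1 and Lhx6) above, against 10.2%. The count of called members was 1 when replicate 1 of the 3-month group or replicate 2 or 3 of the 6-month group was left out, and 6 when replicate 3 of the 3-month group was. Over all genes 209, 40 and 60 were called in the former 3 fits and 580 in the latter, against 421 of 17840 with every library.

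From 6 to 12 months 0 of 29 genes were called in APP mice by limma, where 0.538% of all genes were called, and 1 of the 29 had an unadjusted p below 0.05, against 11.4% of all genes. In WT mice over the same ages 0 of 29 were called, with 0% of all genes called, and 0 of the 29 had an unadjusted p below 0.05, against 6.83% of all genes.

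Values in the remaining groups follow for members named above. Gabrd stood at 7.79, 6.67 and 7.71 scaled TPM in WT at 6 months and 8.9, 5.64 and 7.73 in WT at 12 months, all below the lowest APP 3-month library. Gabrb2 stood at 69.1, 65.2 and 77.7 in APP against 72.6, 75.1 and 71.3 in WT at 6 months and at 81.4, 71.5 and 65.5 in WT at 12 months, also all below the lowest APP 3-month library. Glrb stood at 70.1, 60.1 and 79.2 in APP against 79.4, 79.7 and 90.3 in WT at 6 months and at 76.7, 77.9 and 72.5 in WT at 12 months. For Glrb, WT 6-month replicate 3 lay within the range of the APP 3-month libraries and the others below it. Gabrg3 stood at 8.72 and 8.12 in WT at 3 months and at 7.69, 7.44 and 7.24 in APP against 9.35, 8.23 and 10.5 in WT at 6 months. Gabra5 stood at 49.1, 57.04 and 57.6 in APP against 74.3, 44.9 and 56.3 in WT at 6 months and 52.5, 49.8 and 55.5 in APP against 66.01, 62.6 and 53.8 in WT at 12 months, so no library there came down to APP 3-month replicates 1 and 2.

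Gabra4 stood at 41.7, 33.1 and 37.9 in APP against 35.97, 42.2 and 42.4 in WT at 6 months and 32.3, 32.3 and 33.2 in APP against 38.4, 39.6 and 35.8 in WT at 12 months. At 12 months all 3 APP libraries were the lower. Slc6a11 at 12 months stood at 35.04, 41.02 and 35.8 in APP against 34.1, 50.1 and 37.9 in WT, overlapping. Slc32a1 ranged from 17.2 to 27.9 in APP and 17.5 to 23.5 in WT at 6 months. At 12 months its ranges were 19.6 to 24.7 in APP and 21.9 to 26.7 in WT, so the genotypes overlapped at both ages. Dlx6 stood at 7.54, 2.43 and 2.72 in APP against 1.24 and 3.17 in WT at 3 months and 3.14, 2.45 and 2.73 in APP against 1.63, 1.78 and 5.29 in WT at 6 months, low values that overlapped at both ages. The members not given by library ranged over the 17 libraries from 29.7 to 46.7 scaled TPM for Gabrb1, 16.7 to 26.8 for Gabra3, 6.28 to 16.7 for the gamma subunit Gabrg1, 48.2 to 103 for Abat, 2.13 to 8.27 for the glycine receptor subunit Glra2, 16.5 to 29.1 for Erbb4 and 1.08 to 3.19 for Dlx5.

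Ratios of 2 genes within a library do not depend on how libraries are scaled. For each of the 4 ratios, the genotype difference averaged over ages includes 6 and 12 months, where the APP and WT mice also differed in sex. Genotype and sex cannot be told apart in that part of it. The exporter Slc12a5 was above the importer Slc12a2 in every hippocampus library, with group means of the ratio from 2.30 ± 1.44 (APP at 3 months) to 3.46 ± 1.11 (APP at 6 months; SD, n = 3 each). Slc12a5 itself ranged widely in every group, for example 56.2, 126 and 67.9 scaled TPM in APP at 3 months and 66.5 and 98.5 in WT. Averaged over ages, the log2 ratio differed by -0.15 between APP and WT, and a two-sided exact permutation test within age over 4000 arrangements gave p = 0.627 (0.701 after Benjamini-Hochberg adjustment over the 4 ratios). The sign turned with age, with differences of -0.50 at 3 months, 0.37 at 6 and -0.31 at 12. The mean over ages ranged from -0.31 without APP 3-month replicate 2 to -0.0020 without WT 3-month replicate 2. Gad2 was below Gad1 in every library, at mean ratios of 0.329 to 0.366 by group, and the genotype difference was -0.04 (exact p = 0.701, adjusted 0.701), made up of 0.05 at 3 months, -0.09 at 6 and -0.08 at 12. Gabbr2 was below Gabbr1, the subunit that binds GABA, at mean ratios of 0.279 to 0.347, with a difference of 0.12 (exact p = 0.147, adjusted 0.294).

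At 3 months the ratio of Gabrd to Gabra4 averaged 0.377 ± 0.0247 in APP (SD, n = 3) and 0.226 ± 0.0323 in WT (SD, n = 2), and every APP library (0.355 to 0.404) was above both WT libraries (0.203 and 0.249). Over ages the log2 ratio was 0.34 higher in APP, which did not pass the test (exact p = 0.0690, adjusted 0.276), with differences of 0.74 at 3 months, -0.09 at 6 and 0.37 at 12. At 3 months alone the exact p was 0.1, the smallest that 10 arrangements can give.

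The single genes of the ratios had these values. Slc12a5 stood at 59.4, 101 and 99.6 in APP against 50.2, 88.4 and 66.9 in WT at 6 months (scaled TPM) and 89.5, 72.6 and 87.7 in APP against 90.97, 67.8 and 112 in WT at 12 months. Slc12a2 stood at 31.6 and 25.5 in WT at 3 months, 24.3, 26.5 and 27.1 in WT at 6 months and 32.4, 32.3 and 29.8 in APP against 23.7, 31.02 and 26.9 in WT at 12 months. Both transporters overlapped between genotypes at 6 and at 12 months. Gad1 stood at 113, 78.5 and 111 in APP against 101, 86.2 and 97.5 in WT at 6 months and 95.3, 92.8 and 94.7 in APP against 93, 116 and 99.7 in WT at 12 months. Gad2 stood at 39.9, 27.3 and 35.1 in APP against 32.9, 33.4 and 36.5 in WT at 6 months and 29.9, 31.2 and 31.97 in APP against 34.5, 38.1 and 34.6 in WT at 12 months. Both decarboxylases overlapped between genotypes at 6 months, and at 12 months all Gad2 values of APP were below those of WT while Gad1 overlapped.

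The type B receptor subunits had coefficients of variation of 12.3% (Gabbr1) and 17.3% (Gabbr2) over the 17 libraries. Gabbr1 stood at 202, 185 and 174 in APP against 165 and 214 in WT at 3 months (scaled TPM), 197, 137 and 199 in APP against 188, 137 and 163 in WT at 6 months and 156, 167 and 171 in APP against 169, 187 and 163 in WT at 12 months. Gabbr2 stood at 67.2, 76.3 and 51.4 in APP against 53.1 and 69.3 in WT at 3 months, 58.7, 49.9 and 55.9 in APP against 44.8, 40.7 and 48.97 in WT at 6 months and 50.7, 49.4 and 50.5 in APP against 45.5, 53.8 and 48.9 in WT at 12 months. The genotypes overlapped at every age but for Gabbr2 at 6 months, where the APP libraries were the higher.

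The other genes of the pathway were taken from lists of synapse and interneuron genes. Of 7 tested genes of transport and metabolism, 4 of receptor subunits and type B auxiliary proteins, 16 of scaffold and trafficking, and 2 of glycine receptors and transport, 0 were called between genotypes at 3, 6 or 12 months. Of all tested genes 0.303%, 1.66% and 0.443% were called at these ages. Within APP mice Kctd12, an auxiliary subunit of the type B receptor, rose by 0.69 on the log2 scale from 3 to 6 months (limma adjusted p = 0.0163) and by 0.69 from 3 to 12 months (adjusted p = 0.00999). Slc6a9, a glycine transporter, fell by 0.79 (adjusted p = 0.0402) and by 0.84 (adjusted p = 0.0234) over the same intervals, and Slc38a1, a glutamine transporter, fell by 0.48 from 3 to 12 months (adjusted p = 0.0428). Of all tested genes 1.27% were called higher and 1.09% lower from 3 to 6 months, and 1.92% and 1.36% from 3 to 12 months. These age comparisons rest on the APP 3-month libraries, of which replicates 1 and 2 were high in thalamic markers.

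Of 26 tested markers of interneuron subtypes, 1 was called at 3 months, where 0.303% of all tested genes were: Kit, a receptor tyrosine kinase of some interneurons, was 1.21 lower in APP on the log2 scale (adjusted p = 0.0417). The median of the 26 was -0.28, and 0 were called at 6 or at 12 months, where 1.66% and 0.443% of all tested genes were. Of all 17840 tested genes, 421 were called from 3 to 6 months in APP mice and 585 from 3 to 12 months. From 3 to 6 months Kit rose by 1.02 (adjusted p = 0.0187) and Syt2, a synaptotagmin of fast-spiking terminals, fell by 1.28 (adjusted p = 0.0205). From 3 to 12 months Kit rose by 1.08 (adjusted p = 0.00974), Nos1, neuronal nitric oxide synthase, rose by 0.93 (adjusted p = 0.0188), and Crh, a neuropeptide, fell by 1.14 (adjusted p = 0.0392). In the same 3-month comparison the 8 excitatory neuron markers all had changes below 0, with a median of -0.73 and 0 called, and the 8 thalamic markers all had changes above 0, with a median of 1.57 and 0 called.

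HT-22 cells held few of the 30 genes. In 16 of 30 every one of the 14 libraries was listed at 0, against 15.3% of the genes tested in hippocampus, and 8 of 30 had a mean of at least 1 TPM, against 74.0%. Gabra6, among the 16, was not itself tested in hippocampus. The 16 included the receptor subunits Gabra2, Gabra4, Gabra5, Gabrb2, Gabrg1, Gabrg3 and Gabrd, the terminal genes Gad1 and Slc32a1, and Pvalb and Erbb4. The other 6 were above 0 in some library but had means below 1, such as Gabra3 (0.443 scaled TPM) and Abat, the enzyme that breaks GABA down (0.244). As a check of the cell type, the summed 8 pan-neuronal markers ran from 6.99 to 13.5 scaled TPM in HT-22 cells and from 1820 to 2340 in hippocampus, each system on its own scale, and 4 of the 8 were listed at 0 in every HT-22 library.

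The 8 genes held by HT-22 cells were Gabbr1 (mean 57.7 scaled TPM over 14 libraries), Nlgn2, an adhesion protein of inhibitory synapses (47.1), Slc12a2 (36.4), Gphn (14.9), Dlx2 (13.4), Lhx6 (10.5), Dlx1 (3.86) and Slc12a5 (1.92). Gabbr1 was thus present with its partner Gabbr2 listed at 0 in every library. The chloride transporters stood in the reverse order to hippocampus, with the importer Slc12a2 at 30.1 to 45.2 and the exporter Slc12a5 at 0.710 to 3.57. On a scale common to both systems, Dlx2 averaged 9.32 in HT-22 cells and 2.45 in hippocampus, and Lhx6 7.30 and 6.21; cell line and tissue were not compared by a test.

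In HT-22 cells 0 of the 8 genes were called in any of the 5 comparisons of peptide and LNA. Of all 17291 tested genes, 0% were called in the comparisons of Aβ42 with reverse peptide under scramble and under anti-Hsf1 LNA, in that of the LNAs under reverse peptide and in the interaction, and 0.0231% were called between the LNAs under Aβ42. The target of the LNA, Hsf1, overlapped between the groups: it stood at 43.3 to 51.4 scaled TPM in the libraries labelled anti-Hsf1 with Aβ42 and at 49.0 to 71.3 in those with scramble LNA, and at 43.1 to 52.6 and 43.1 to 61.9 with the reverse peptide.

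Nlgn2 lay apart in 2 of these comparisons without passing the test. It stood at 56.1, 54.4 and 60.5 scaled TPM with Aβ42 and anti-Hsf1 LNA, above all libraries with the reverse peptide and anti-Hsf1 LNA (49.3, 40.7 and 43.6; limma adjusted p = 1.00) and all with Aβ42 and scramble LNA (50.8, 50.4, 40.4 and 40.5; adjusted p = 0.550). The unadjusted p of limma was below 0.05 in both, at 0.0423 and 0.0446. In each of the 2 comparisons this was 1 gene of 8 (12.5%), against 8.69% and 4.35% of all genes. With the reverse peptide and scramble LNA it stood at 46.4, 46.1, 48.5 and 31.8.

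In HT-22 cells Gabbr1 stood at 61.4, 56.8, 46.2 and 53.7 with Aβ42 and scramble LNA, 55.7, 67.9, 67.2 and 34.2 with reverse peptide and scramble, 60.6, 67.1 and 57.3 with Aβ42 and anti-Hsf1, and 58.9, 56.4 and 64.7 with reverse peptide and anti-Hsf1, in scaled TPM. Slc12a2 stood at 35.6, 32.5, 43.4 and 45.1 with Aβ42 and scramble LNA, 31.8, 34.6, 30.1 and 43.5 with reverse peptide and scramble, 32.97, 34.4 and 36.95 with Aβ42 and anti-Hsf1, and 35.8, 37.9 and 34.9 with reverse peptide and anti-Hsf1. The lowest and the highest value of each of these genes came from scramble libraries. Gphn stood at 15.5, 18.4, 9.48 and 12.7 with Aβ42 and scramble LNA, 14.01, 18.6, 15.9 and 12.2 with reverse peptide and scramble, 14.4, 14.6 and 18.8 with Aβ42 and anti-Hsf1, and 13.9, 14.9 and 15.5 with reverse peptide and anti-Hsf1. Slc12a5 stood at 2.18, 3.08, 1.22 and 1.41 with Aβ42 and scramble LNA, 1.699, 0.7101, 2.13 and 0.909 with reverse peptide and scramble, 1.72, 2.24 and 1.22 with Aβ42 and anti-Hsf1, and 3.21, 1.55 and 3.57 with reverse peptide and anti-Hsf1. The 4 groups of each overlapped. Lhx6, a LIM homeobox gene of interneurons from the medial ganglionic eminence, stood at 8.33, 11.6, 10.4 and 11.5 with Aβ42 and scramble LNA, 11.7, 11.3, 7.83 and 10.6 with reverse peptide and scramble, 13.2, 9.58 and 11.2 with Aβ42 and anti-Hsf1, and 11.4, 10.7 and 8.05 with reverse peptide and anti-Hsf1. Dlx1, a homeobox gene beside Dlx2, stood at 4.08, 3.96, 6.76 and 4.57 with Aβ42 and scramble LNA, 2.74, 3.77, 2.96 and 4.96 with reverse peptide and scramble, 3.13, 4.09 and 2.88 with Aβ42 and anti-Hsf1, and 2.69, 4.24 and 3.22 with reverse peptide and anti-Hsf1. Their groups overlapped too.

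Dlx2, a homeobox gene of interneuron precursors, varied most. It stood at 5.32, 4.98, 34.3 and 31.9 scaled TPM with Aβ42 and scramble LNA, at 12.5, 7.28, 8.42 and 38.8 with reverse peptide and scramble LNA, at 6.94, 7.53 and 8.60 with Aβ42 and anti-Hsf1 LNA, and at 6.45, 7.19 and 7.54 with reverse peptide and anti-Hsf1 LNA. The 3 values above 30 were all in scramble libraries: Aβ42 replicates 3 and 4 and reverse peptide replicate 4. The same 3 libraries held Fos at 37.0, 66.9 and 39.1 and Egr1 at 217, 239 and 322, against 2.57 to 6.83 and 24.3 to 41.9 in the other 11; both are immediate-early genes. They also held the lowest Gabbr1 (46.2, 53.7 and 34.2) and the highest Slc12a2 (43.4, 45.1 and 43.5) of the 14. The change of Dlx2 between LNAs was -0.74 ± 0.65 under Aβ42 (limma adjusted p = 0.669) and -0.83 ± 0.65 under reverse peptide (adjusted p = 0.959). Without the 3 libraries, a choice made after seeing the data, it was 0.49 and -0.34. What part Fos and Egr1 had in it was not tested.

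The 250 bases before the RefSeq start of Dlx2 (GRCm38.p6, minus strand, chr2:71546755-71547004) are shown because Dlx2 varied most among the HT-22 libraries, with the E-box letters in capitals.
Dlx2: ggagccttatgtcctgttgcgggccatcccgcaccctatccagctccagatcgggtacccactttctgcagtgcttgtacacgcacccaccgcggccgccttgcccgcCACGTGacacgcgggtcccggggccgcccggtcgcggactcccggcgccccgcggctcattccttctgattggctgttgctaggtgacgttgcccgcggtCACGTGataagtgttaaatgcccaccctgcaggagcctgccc
It held 2 E-boxes and none of the other 5 motifs.

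**Figure D5:**
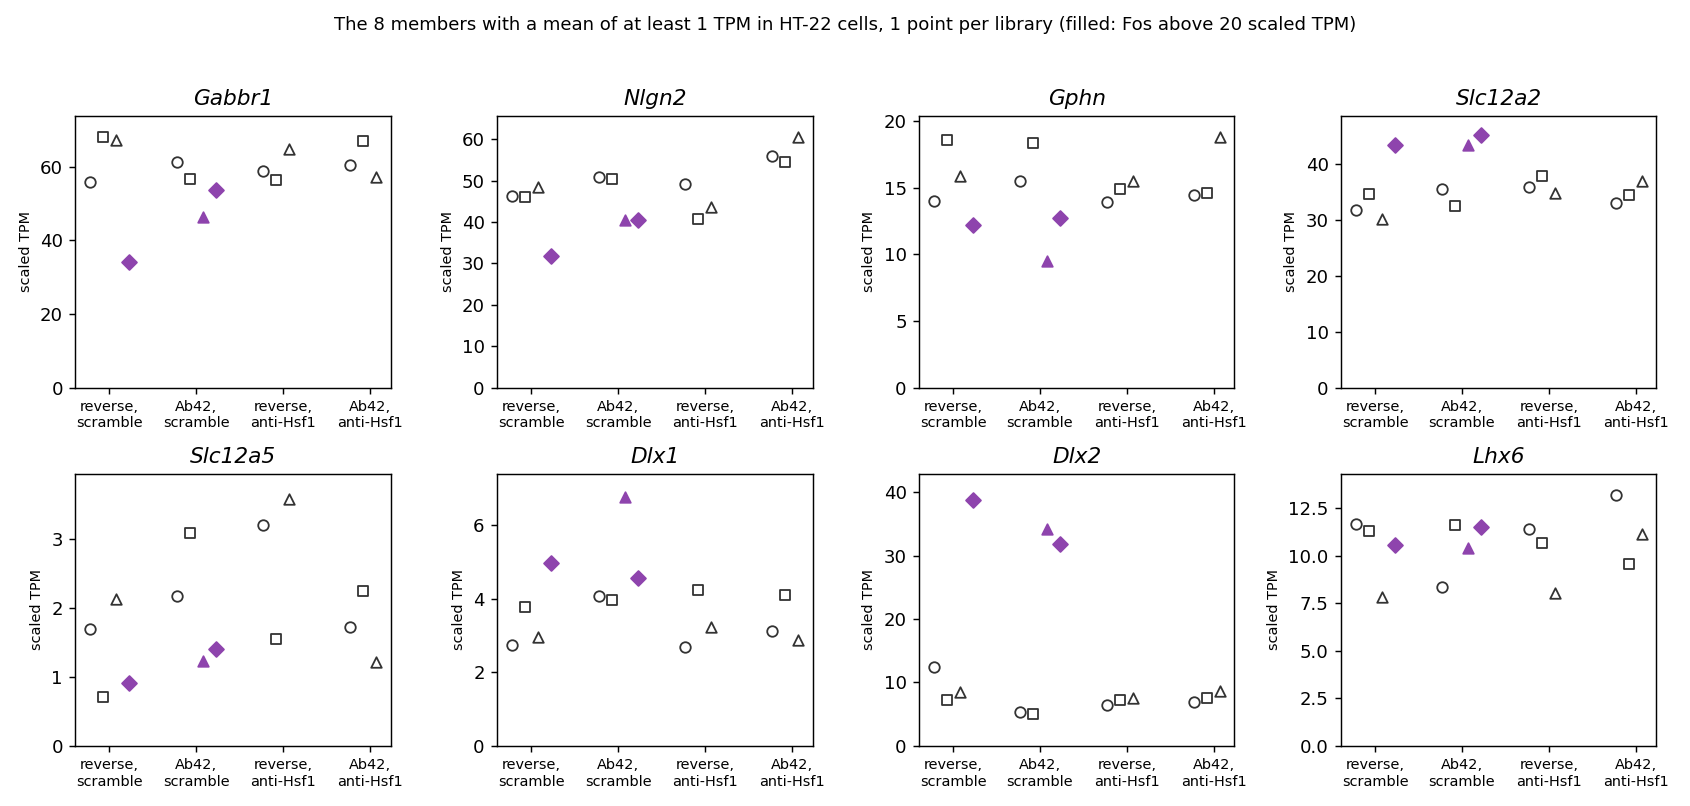
Scaled TPM (y axes, from 0) of the 8 genes with a mean of at least 1 TPM in HT-22 cells, 1 point per library in the 4 groups of peptide and LNA, with libraries of Fos above 20 scaled TPM filled. The 3 filled libraries hold the highest Dlx2 (31.9 to 38.8) and the lowest Gabbr1 (34.2 to 53.7).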

How the data were processed

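Per the file headers, the authors deposited for each long-RNA library a gene abundance table with coverage signal, FPKM and TPM, 1 file per library with no pooling. The submitters' processing notes name HISAT2 2.1.0 and StringTie 1.3.4d among the tools and the builds mm10 and GRCm38; the reads per gene are not given, so no count model was run. TPM was summed per gene identifier and divided by median-of-ratios size factors (0.688 to 1.46 in hippocampus, 0.639 to 1.23 in HT-22 cells). limma 3.58.1 (R 4.3.3; trend, robust) was fitted to log2(scaled TPM + 1) of genes averaging 1 TPM or more, in 1 fit of 17 hippocampus and 1 of 14 HT-22 libraries, with Benjamini-Hochberg adjustment over 17840 and 17291 genes. The fit was run on simulated data with independent normal noise. These held no libraries that stood apart, so the simulation does not bear on the calls given here.

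The members and lists were chosen with earlier results of these data known. Values in every library are given for members called in any contrast, for the 3 largest changes of each genotype contrast, for the ratio genes and for members with a mean of at least 1 in HT-22 cells, and further members are given where they help a comparison. The series calls the HT-22 samples biological replicates; separate cultures are not stated, so p-values measure the spread between these samples. Libraries were not treated as paired by replicate number. Alternatives were unscaled TPM, protein-coding scaling, pseudocount 0.1, no filter or a mean TPM of at least 5, the contrast's groups alone, a replicate block, array weights and leaving out each library. Promoter windows on mouse chromosome 18 were left out of the motif shares. The short-RNA tables were not used here.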

Additional observations from a re-analysis of the deposited data

Results flagged for a closer look

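In the 4 HT-22 libraries with reverse peptide and scramble LNA, replicate 4 lay far from the others for 2 genes. Its Nlgn2 was the lowest at 31.8 scaled TPM, where the other libraries were at 46.1 to 48.5, and its Dlx2 was the highest at 38.8, where the others were at 7.28 to 12.5. For normally distributed values a distance of this size is met by chance in about 1 in 20 groups. The 8 genes held by HT-22 cells were screened in both scramble groups, and the rate is not adjusted for that number.

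The change of Pvalb between APP and WT differed between ages, with an adjusted p of 0.0383 from the limma F test of the interaction of genotype with age. The WT 6-month and 12-month mice carry Ddx3y and the other mice Xist, so a difference between sexes cannot be told apart from it.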

How the results depend on the processing

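The counts of called members changed as follows from 1 (APP against WT at 3 months), 0 (6 months), 0 (12 months), 1 (interaction), 3 (APP 6 against 3 months), 5 (12 against 3 months) and 0 (12 against 6 months). On unscaled TPM they were 18 at 6 months, 7 for the interaction, 5 for APP 6 against 3 and 1 for 12 against 3 months, and in HT-22 cells 1 for Aβ42 under anti-Hsf1 LNA, 3 between LNAs under Aβ42 and 1 for the peptide by LNA interaction. With no filter they were 0 at 3 months, 0 for the interaction, 1 for APP 6 against 3 and 2 for 12 against 3 months. With the groups of the contrast alone they were 0 at 3 months, 0 for APP 6 against 3 and 0 for 12 against 3 months; this fit cannot be made for the interactions. With array weights they were 0 at 3 months, 0 for the interaction and, in HT-22 cells, 1 between LNAs under Aβ42. The share of all genes called is not given for the fits with no filter, the contrast's groups alone or array weights. Their counts are therefore not set against all genes and are not a result about the members. The fit without the libraries with thalamic markers above 100 kept replicate 3 as the only APP library at 3 months, so its counts are not given. Leaving out each library gave 0 to 4 at 3 months, 0 to 1 at 12 months, 0 to 1 for the interaction, 1 to 6 for APP 6 against 3 and 0 to 13 for 12 against 3 months. These causes were not tested.

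With the replicate block, which treats equal replicate numbers as paired, the count was 1 at 6 months (Pvalb, limma adjusted p = 0.0359) and 1 for APP 12 against 6 months, and it moved no other count by over 1.5 times. The share of all genes called with the block is not given either. The correlation of deviations between equally numbered libraries was above 0.1 in every pair of no comparison (0.0360 to 0.116 at 6 months), so no pairing was used. It was 0.062 to 0.228 for APP 6 against 3 months, with a mean of 0.15 against -0.075 for unlike numbers. For Aβ42 against reverse peptide under scramble LNA it was -0.216 to 0.575, with means of 0.209 and -0.072. What these libraries share was not tested.

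The log2 ratio of Gad2 to Gad1 turned to 0.0503 at 3 months alone and to 0.0045 without APP 3-month replicate 3 (range -0.11 to 0.0045 over single libraries left out). That of Gabrd to Gabra4 ranged from 0.25 to 0.43, and passed the test at 0.43 without APP 6-month replicate 2. Leaving out the libraries high in thalamic markers kept APP replicate 3 alone at 3 months, so only sizes are given. The mean differences over ages were then -0.15 for Gad2 to Gad1, 0.057 for Gabbr2 to Gabbr1, 0.25 for Gabrd to Gabra4 and -0.074 for Slc12a5 to Slc12a2. At 3 months they were -0.23, -0.13, 0.73 and -0.57 in the same order. Changes of sign among single genes were Gabra2 (0.0216) and Pvalb (0.19) at 6 months on unscaled TPM, Dlx6 at 12 months without APP replicate 3 (-0.0605; up to 0.4744 without replicate 1), Slc6a11 at 3 months without the libraries high in thalamic markers (-0.0944) and Dlx2 between LNAs under Aβ42 without the libraries high in Fos (0.49). The groups held 2 or 3 hippocampus libraries each and no read counts were used, which limits the precision for members of low level; the smallest change that could be detected was not computed.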

Other observations

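The subtype markers of interneurons in hippocampus were led by the neuropeptide genes Cck, with a mean of 167 scaled TPM over the 17 libraries (93.1 to 301), and Sst, with a mean of 114 (56.9 to 170). Npy averaged 23.5 (12.5 to 30.6), Reln, a secreted protein of neurogliaform and other cells, 25.1 (17.5 to 35.7), and Vip 8.71. Cck is also made by excitatory neurons, so its level is not that of interneurons alone. Nkx2-1, a regulator of interneuron origin in the embryo, averaged 0.229 and was at 0 in 5 of the 17 libraries.

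In HT-22 cells the neuropeptide genes Sst, Vip, Npy and Cck were listed at 0 in all 14 libraries. Cort averaged 1.26 scaled TPM (0.435 to 2.83) and Syt2 2.01 (0 to 3.75), beside the Dlx1, Dlx2 and Lhx6 transcripts described above.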
